A study of Mus musculus with 6 samples.

Results

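The genes described here are the 31 mouse genes of a set list for cholesterol and fatty acid synthesis, found by symbol among the 24091 genes of a deposited table of raw read counts. A sterol arm holds 22 of them and a fatty acid arm 9, and 29 passed the filter on low counts, 22 and 7 in the arms. The mRNA came from group 1 innate lymphoid cells (ILC1) of the liver, in C57BL/6 mice that had received the leukaemia line C1498 into a vein (AML, n = 3 libraries) and in mice that had not (healthy, n = 3 libraries). Both groups carry the label of day 14 after tumour transfer. C1498 is a transplantable line of the same mouse strain, so the AML group stands for a single line. The labels give neither the gate used to isolate the ILC1, nor whether a library came from 1 animal or from a pool, nor the animals' age, so the p-values below measure the spread between libraries, which may be technical in part.

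Levels are read counts scaled to library size (CPM), with sizes adjusted by the TMM method, and they are compared between genes only as RPKM, which is CPM per kilobase of the length given in the table. Total counts ran from 45135093 to 51284691 per library. The ILC1 marker list summed to 5327 to 6047 CPM in the 6 libraries, and the conventional NK cell list to 28.1 to 56.0 CPM. Hepatocytes are a main site of both pathways in the body, and the 10 hepatocyte markers together reached 1.14 to 6.25 CPM, with the aminotransferase gene Tat at 0 reads in every library. Healthy 1 stood apart from its group in myeloid transcripts, with Lyz2, the lysozyme gene of macrophages and neutrophils, at 459 CPM against 33.1 CPM in healthy 3 and 434 to 567 CPM in AML libraries. Without healthy 1 alone, 0 of 29 members were called, where 89 of all 12766 genes were, and the median log2 fold change of the sterol arm was -0.11. As these were bulk samples, fewer cells of a type and less RNA per cell cannot be told apart.

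Animal cells build cholesterol from acetyl-CoA through mevalonate, squalene and lanosterol, and fatty acids from the same precursor through malonyl-CoA. The transcription factors SREBP2 and SREBP1, encoded by Srebf2 and Srebf1, switch on the sterol and the fatty acid enzymes. They wait in the membrane of the endoplasmic reticulum, where INSIG proteins hold them when sterols are plentiful. Lymphocytes raise both pathways when they grow, and SREBP activity is known to support the metabolism of activated NK cells, which are close relatives of ILC1.

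The promoters of these genes are known for binding sites of SREBP beside those of the factors NF-Y and Sp1. RefSeq sequences of GRCm38.p6, from 250 bases before to 50 bases after a gene's start, matched 24 of the 31 genes. Fdps, Fdft1, Sqle, Stard4, Scd1, Scd2 and Fads1 had no entry. The letters CCAAT, the core of an NF-Y site, occurred on either strand in 20 of the 24 genes (83.3%) and in 42.9% of the 9687 tested genes with a promoter entry. In all 32851 windows the share was 37.4%. GGGCGG, the core of an Sp1 site, occurred in 19 of the 24 (79.2%) against 67.4% of tested genes and 35.7% of windows, and the E-box CACGTG in 4 (16.7%) against 11.7% and 7.2%. The sterol regulatory element, searched as TCACNCCAC on both strands, occurred in Hmgcs1 alone among the 24 (4.2%), against 1.5% of tested genes and 1.2% of windows. A search for exact letters in a fixed window describes the sequence and not the binding of a factor. It does not count near matches, such as the letters tcaccccat in the Srebf2 window below. The 4 promoters below are those of Hmgcs1, the gene with that element, and of Srebf2, Insig1 and Cyp51, whose levels varied most with the AML libraries or separated the groups. Capitals mark CCAAT or its reverse ATTGG and, in Hmgcs1, also the sterol regulatory element, which begins at base -137 counted from the start of the gene. The windows are chr13:119690101-119690400 (+) for Hmgcs1, chr15:82147019-82147318 (+) for Srebf2, chr5:28071162-28071461 (+) for Insig1 and chr5:4104648-4104947 (-) for Cyp51.
Hmgcs1: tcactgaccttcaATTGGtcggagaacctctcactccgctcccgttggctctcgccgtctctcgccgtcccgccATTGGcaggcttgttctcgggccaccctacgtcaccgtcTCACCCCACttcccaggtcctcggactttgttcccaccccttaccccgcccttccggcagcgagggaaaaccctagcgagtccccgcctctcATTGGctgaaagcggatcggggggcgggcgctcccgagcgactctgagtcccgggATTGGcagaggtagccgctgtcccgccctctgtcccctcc
Srebf2: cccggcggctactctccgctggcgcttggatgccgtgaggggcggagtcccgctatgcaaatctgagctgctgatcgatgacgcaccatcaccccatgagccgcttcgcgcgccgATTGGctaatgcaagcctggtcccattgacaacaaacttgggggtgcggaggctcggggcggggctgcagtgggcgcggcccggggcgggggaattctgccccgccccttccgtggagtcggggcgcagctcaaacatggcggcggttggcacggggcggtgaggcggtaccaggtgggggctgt
Insig1: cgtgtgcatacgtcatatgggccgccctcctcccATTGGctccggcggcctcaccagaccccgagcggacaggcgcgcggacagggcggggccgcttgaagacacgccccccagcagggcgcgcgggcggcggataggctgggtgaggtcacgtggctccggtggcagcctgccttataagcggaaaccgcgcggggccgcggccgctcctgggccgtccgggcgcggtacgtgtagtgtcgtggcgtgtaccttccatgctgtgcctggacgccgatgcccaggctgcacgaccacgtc
Cyp51: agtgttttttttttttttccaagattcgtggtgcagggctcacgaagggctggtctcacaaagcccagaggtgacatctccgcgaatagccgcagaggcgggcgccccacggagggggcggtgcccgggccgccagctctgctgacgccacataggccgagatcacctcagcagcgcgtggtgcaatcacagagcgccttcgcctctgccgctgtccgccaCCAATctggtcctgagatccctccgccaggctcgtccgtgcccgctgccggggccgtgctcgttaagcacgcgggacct

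Hmgcs1 holds 4 matches to CCAAT in this window, while Srebf2, Insig1 and Cyp51 hold 1 each. The single matches lie at different distances from the start, with first bases at -135 in Srebf2, -216 in Insig1 and -29 in Cyp51.

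The ILC1 expressed nearly the whole sterol pathway at moderate levels, while the fatty acid arm ran from the most to the least abundant member. In RPKM, 13 of 22 sterol genes and 4 of 9 fatty acid genes lay above 8.004, the median of all genes tested. Acly, which encodes ATP citrate lyase and supplies cytosolic acetyl-CoA to both pathways, had the highest level of all members, at 87.8 RPKM in healthy and 80.9 RPKM in AML libraries. Srebf2 came next, at 45.9 and 38.8 RPKM, and Srebf1 was close to it, at 33.4 and 36.2 RPKM. Among enzymes of the sterol arm, Ebp, the sterol isomerase, and Sc5d, the sterol desaturase, stood highest, with 36.3 and 25.7 RPKM in healthy libraries. Fasn, the fatty acid synthase, measured 16.8 RPKM in healthy and 16.5 RPKM in AML libraries.

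A few steps were represented by very few reads. Fads2, the delta-6 desaturase of polyunsaturated fatty acids, had 0 reads in all 6 libraries, which allows a level of up to 0.0574 to 0.0642 CPM per library at a limit of 3 reads. Its partner Fads1, the delta-5 desaturase, was present at 1.98 RPKM in healthy and 2.52 RPKM in AML libraries. Scd1, a stearoyl-CoA desaturase, had 14, 2 and 3 reads in healthy 1 to 3 and 8, 14 and 6 reads in AML 1 to 3. Its paralogue Scd2 measured 9.27 RPKM in healthy and 9.14 RPKM in AML libraries, 348 and 234 times the RPKM of Scd1. The ratio in healthy libraries was 858 without healthy 1, which held 14 of their Scd1 reads. The same desaturation step was thus read almost entirely from Scd2 in both groups. Acaca, the acetyl-CoA carboxylase that makes malonyl-CoA, measured 0.274 and 0.338 RPKM, against 16.8 and 16.5 RPKM for Fasn, the next enzyme of the pathway. Idi1, which isomerises isopentenyl diphosphate, stood at 0.427 and 0.413 RPKM.

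Part of these levels depends on how reads that match several genes were counted, which is not given in the sources used here. Of all 51-base windows in the transcripts of a gene, the length of a read, 38.9% for Acat2 also occur in a transcript of another gene on either strand. The share was 30.3% for Acaca, 26.3% for Fdft1, 26.1% for Fdps, 25.2% for Idi1 and 11.5% for Hmgcs1, and it was below 10% for the other 25 members. For Acat2 the windows were those of Acat3, and for Fdft1 the largest part was shared with Ctsb, a lysosomal protease gene. Levels of these 6 genes are uncertain for that reason, while Scd2 shared 3.8% of its windows and Scd1 4.4%.

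**Figure D1:**
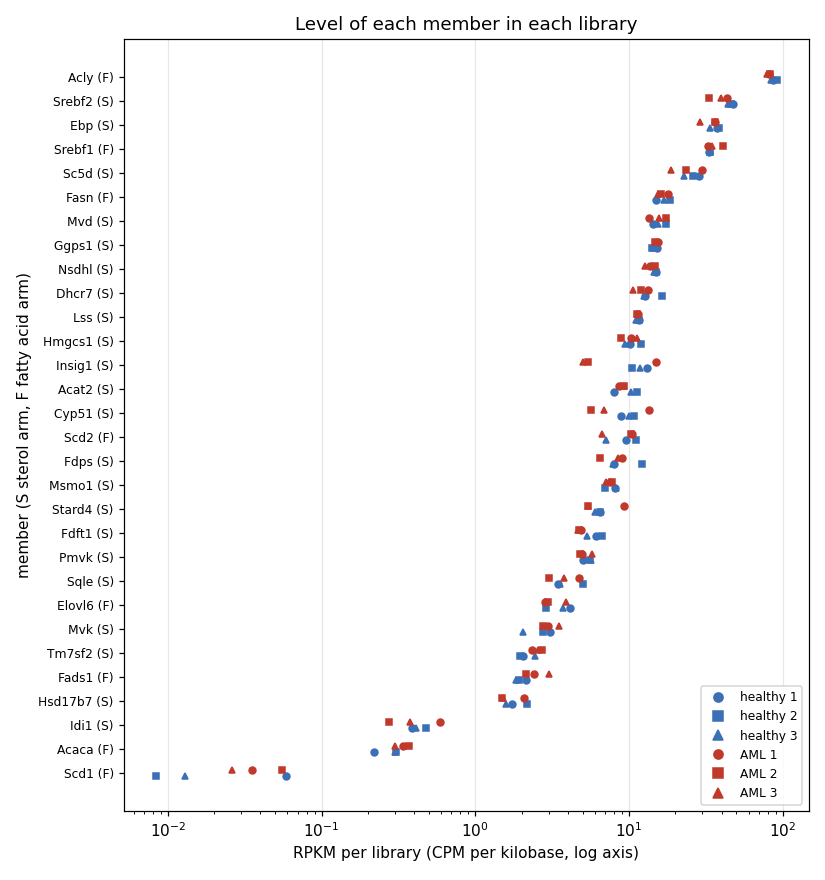
RPKM of each member in each of the 6 libraries on a log axis, with blue symbols for healthy and red for AML libraries, ordered by the mean over all libraries. Acly lies at the top and Scd1 at the bottom, Fads2 is not drawn as it had 0 reads, and the points of AML 1 stand apart from AML 2 and AML 3 for Insig1, Cyp51 and Stard4.

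The comparison of AML with healthy libraries asks how liver ILC1 differed between leukaemic and healthy mice. With edgeR's quasi-likelihood test, 0 of the 29 tested members had an adjusted p below 0.05, and 0% of all 12469 genes did. The member with the smallest adjusted p reached 0.495. Before adjustment 2 members, Fdft1 and Srebf2, had a p below 0.05, both with lower levels in AML, where 3.75% of all genes were lower and 5.08% higher by that rule. In either direction, that is 6.90% of the tested members against 8.84% of all genes. The count was 1 without healthy 1 and 1 without healthy 3, where 9.09% and 8.89% of all genes had such a p. It was 0 without healthy 2, without AML 2 or without AML 3, where 6.05%, 6.34% and 6.04% of all genes did. Without AML 1 it was 4 of 30 members (13.3%), where 14.96% of all genes had such a p. DESeq2, the edgeR likelihood ratio test and limma-voom also called 0 members, where they called 1.06%, 0.802% and 0% of all genes. Each of them had 2 members at an unadjusted p below 0.05, where 8.20%, 8.59% and 10.8% of all genes had one. The authors' deposited table lists 27 of the members, and 0 of them have an adjusted p below 0.05 there, against 0.757% of its 9769 genes.

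The sterol arm leaned to lower values in AML by a small amount. Of its 22 genes 18 had a negative log2 fold change (81.8%), with a median of -0.08, against 48.0% of all genes tested and a median of 0.01. This lean depended on single libraries, as 12 of 22 were negative without healthy 2, at a median of -0.03. With library totals as the only scaling 13 of 22 were negative, also at a median of -0.03. The median of all genes rose too under that scaling, to 0.07, so the smaller count goes with a shift of all genes. Without AML 1 the sterol median was -0.19 and without both healthy 1 and AML 1 it was -0.21. The fatty acid arm had 4 negative values among 7 and a median of -0.02. With library totals as the only scaling its median was 0.04 and that of all genes 0.07, so both rose. As single libraries were left out, 18 of the 29 tested members kept 1 sign and 11 did not, namely Cyp51, Fasn, Fdps, Hmgcs1, Hsd17b7, Idi1, Mvd, Sc5d, Scd2, Sqle and Stard4. The median of a group of genes carries no test here.

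**Figure D2:**
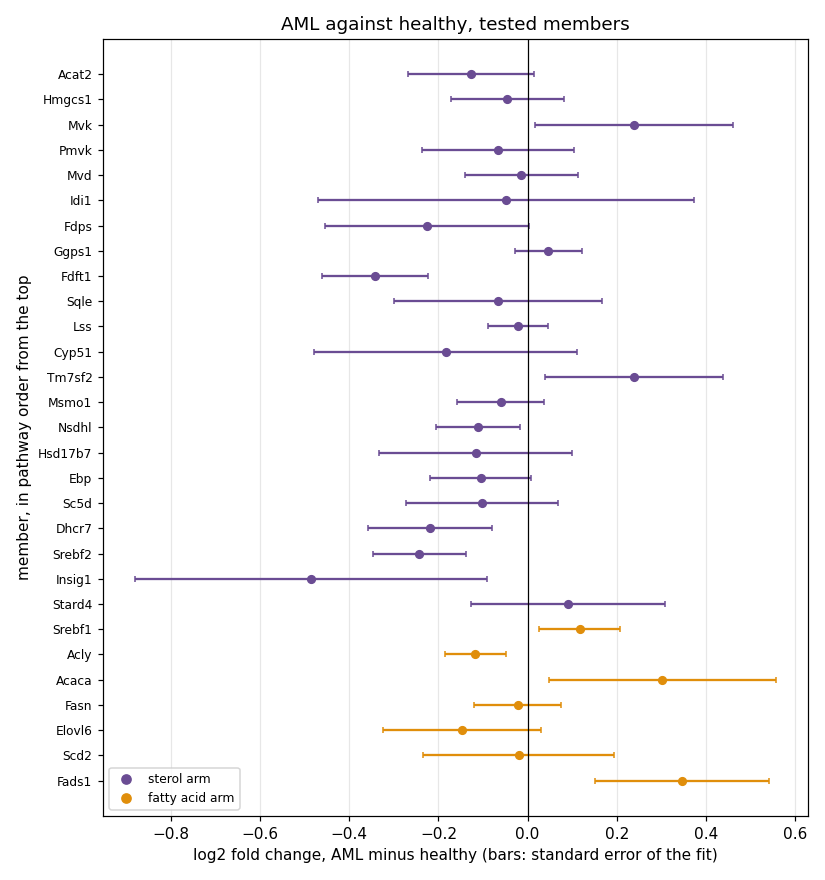
Log2 fold change from healthy to AML of each tested member, with bars for its standard error, in pathway order from the top (purple for the sterol arm, orange for the fatty acid arm). Of the 22 sterol genes 18 lie left of 0, Fdft1 and Srebf2 by more than 2 standard errors, and Insig1 has the lowest value and a wide bar.

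Among the regulators of the sterol arm, Srebf2 was the one whose groups separated most clearly. Srebf2 (chromosome 15, 82147269 to 82204960, mm10) measured 262, 256.1 and 245 CPM in healthy 1 to 3 and 242, 185 and 218 CPM in AML 1 to 3. The 3 AML libraries were the lowest of the 6, though AML 1 lay close to healthy 3. The means were 254 ± 8.42 and 215 ± 28.7 CPM (SD, n = 3 each), and the edgeR log2 fold change was -0.24 ± 0.10 (SE), with an unadjusted p of 0.0485 and an adjusted p of 0.564. It was -0.15 without AML 2 and -0.34 without AML 1. Groups without overlap and with AML below occurred for 3 of the 29 tested members, namely Srebf2, Fdft1 and Acly, where 7.34% of all genes were of this kind. The opposite order, with AML above, occurred for 0 members, where 8.2% of all genes showed it.

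Insig1, whose protein retains SREBP and whose gene is itself a target of SREBP, was the member that varied most among the AML libraries. Insig1 (chromosome 5, 28071412 to 28078662) measured 34.8, 27.7 and 30.97 CPM in healthy 1 to 3 and 39.3, 14.3 and 13.2 CPM in AML 1 to 3. AML 1 was the highest of all 6 libraries, and AML 2 and AML 3 were the lowest. With all libraries the edgeR log2 fold change was -0.49 ± 0.40 (SE), with an unadjusted p of 0.256 and an adjusted p of 0.702. It was -0.25 without AML 2 and -0.22 without AML 3. Without AML 1 it was -1.18 ± 0.14 with an adjusted p of 0.0126, where 0.964% of all genes were called lower, and without both healthy 1 and AML 1 it was -1.09 with an adjusted p of 0.00477, where 1.74% were. Under the other 13 alternatives tried, 0 members passed.

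Insig2, the paralogue that is not driven by SREBP in most cells and is no member of the list, stood the other way. Its level was 22.2, 22.7 and 22.2 CPM in healthy 1 to 3 and 28.0, 32.8 and 32.5 CPM in AML 1 to 3. All AML libraries lay above all healthy libraries, with an edgeR log2 fold change of 0.47 ± 0.10 (SE), an unadjusted p of 0.00175 and an adjusted p of 0.399 that did not pass. The ratio of Insig1 to Insig2 in CPM was 1.56, 1.22 and 1.39 in healthy 1 to 3, 1.41 in AML 1, and 0.436 and 0.406 in AML 2 and AML 3. Stard4, a cytosolic sterol carrier, measured 21.9, 21.7 and 20.1 CPM in healthy 1 to 3 and 31.4, 18.1 and 18.3 CPM in AML 1 to 3, so that AML 1 again stood above and the other AML libraries below the healthy range.

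**Figure D3:**
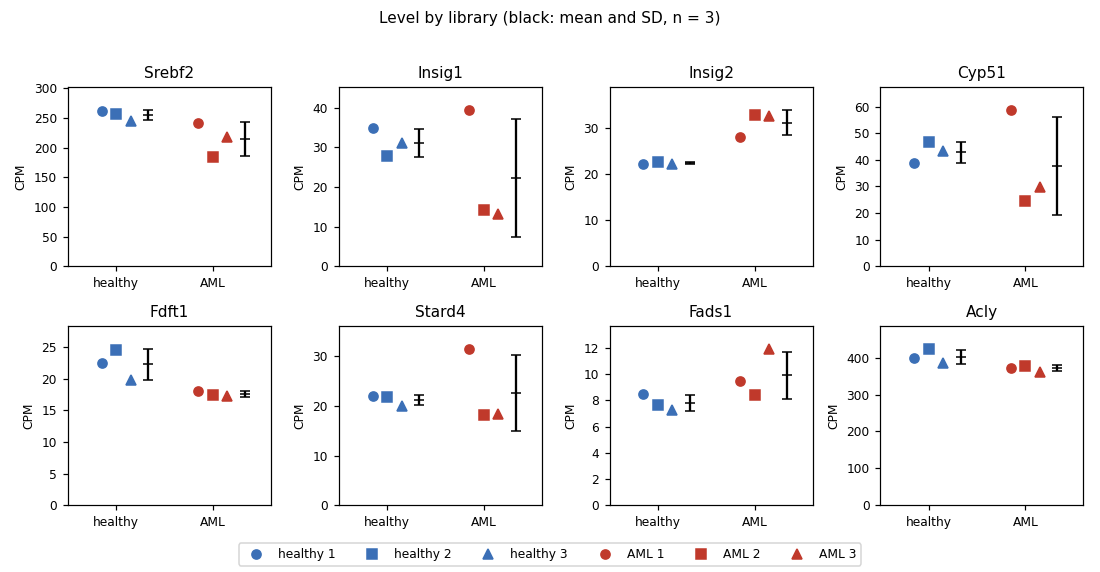
CPM of 8 genes by library, with linear axes that start at 0, symbols for libraries, and the mean and SD of each group in black (n = 3). Insig1, Cyp51 and Stard4 show AML 1 above and AML 2 and AML 3 below the healthy libraries, Srebf2, Fdft1 and Acly show all AML libraries below, and Insig2 shows all above.

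The enzymes of the mevalonate part, which turn acetyl-CoA into the isoprenoid units, showed no shift beyond the spread of the libraries. Of 8 genes 6 had a negative log2 fold change, from -0.22 to 0.24, with a median of -0.05. Hmgcs1, the HMG-CoA synthase, measured 45.8, 53.6 and 42.2 CPM in healthy 1 to 3 and 46.8, 39.8 and 50.6 CPM in AML 1 to 3, and the ranges overlapped, with AML 2 the lowest and healthy 2 the highest library. Fdps, the farnesyl diphosphate synthase, measured 11.7, 17.7 and 11.4 CPM in healthy and 13.2, 9.34 and 12.4 CPM in AML libraries. Its edgeR log2 fold change of -0.22 ± 0.23 (SE; p 0.356, adjusted p 0.763) rested on healthy 2, as it was 0.01 without that library. Mvk, the mevalonate kinase, measured 8.21, 7.30 and 5.42 CPM in healthy and 7.95, 7.39 and 9.34 CPM in AML libraries, an edgeR log2 fold change of 0.24 ± 0.22 (SE; p 0.316, adjusted p 0.740). Leaving out healthy 1 gave 0.37, leaving out healthy 3 gave 0.08 and leaving out AML 3 gave 0.14. Ggps1, which makes the geranylgeranyl diphosphate used to anchor small GTPases, was steady, at 55.7 ± 2.10 and 57.5 ± 1.40 CPM (SD, n = 3 each). Acat2, which makes acetoacetyl-CoA, Pmvk and Mvd, the later kinase and decarboxylase, and Idi1 had log2 fold changes of -0.13, -0.07, -0.01 and -0.05.

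Of the 3 enzymes that lead from farnesyl diphosphate to lanosterol, Fdft1 was lower in AML and the other 2 overlapped. Fdft1, the squalene synthase that commits the pathway to sterols (chromosome 14, 63145151 to 63179578), measured 22.4, 24.6 and 19.8 CPM in healthy 1 to 3 and 18.0, 17.5 and 17.2 CPM in AML 1 to 3. The AML libraries lay close together below all healthy libraries. The means were 22.3 ± 2.40 and 17.6 ± 0.431 CPM (SD, n = 3 each), with an edgeR log2 fold change of -0.34 ± 0.12 (SE), an unadjusted p of 0.0214 and an adjusted p of 0.495. Left-out libraries took it from -0.43 to -0.27. Sqle, the squalene epoxidase, measured 11.0 ± 2.45 and 10.5 ± 2.31 CPM, and Lss, the lanosterol synthase, 79.9 ± 1.91 and 78.7 ± 0.573 CPM, a log2 fold change of -0.02 ± 0.07 (SE).

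Among the 8 enzymes from lanosterol to cholesterol 7 had a negative log2 fold change, with a median of -0.11. Cyp51, the lanosterol demethylase (chromosome 5, 4080674 to 4104697), resembled Insig1 in its AML libraries, with 38.7, 46.6 and 43.2 CPM in healthy 1 to 3 and 58.6, 24.7 and 29.9 CPM in AML 1 to 3. AML 1 was the highest of the 6 libraries and AML 2 and AML 3 were the lowest. Its edgeR log2 fold change was -0.18 ± 0.30 (SE; adjusted p 0.849). It was -0.65 without AML 1 and 0.05 without AML 2, and without both healthy 1 and AML 1 it was -0.72 with an adjusted p of 0.0254. Cyp51 was described in full after its values were seen. Dhcr7, the last reductase of the pathway, measured 35.8, 46.3 and 35.02 CPM in healthy and 37.1, 33.8 and 29.7 CPM in AML libraries, an edgeR log2 fold change of -0.22 ± 0.14 (SE; p 0.156, adjusted p 0.645). Healthy 2 stood above the rest, and without it the value was -0.09. Nsdhl, a sterol dehydrogenase, measured 32.9, 33.3 and 32.1 CPM in healthy and 30.5, 32.6 and 27.9 CPM in AML libraries, and its edgeR log2 fold change was -0.11 ± 0.09 (SE; p 0.269, adjusted p 0.710). AML 2 lay within the healthy range and the other AML libraries below it, and without AML 3 the value was -0.06. Tm7sf2, a sterol reductase of low level, was the exception in sign, with 5.45, 5.19 and 6.50 CPM in healthy and 6.24, 7.18 and 6.79 CPM in AML libraries, an edgeR log2 fold change of 0.24 ± 0.20 (SE; p 0.270, adjusted p 0.711). Lbr, the lamin B receptor, catalyses the same reduction and is no member, and at 159.9 and 152 RPKM it stood 74.4 and 60.1 times above Tm7sf2. Ebp, Sc5d, Msmo1 and Hsd17b7 had log2 fold changes of -0.11, -0.10, -0.06 and -0.12, each smaller than its standard error.

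The medians of the sterol genes differed more among the AML libraries than the groups differed in the median fold change of -0.08. The median of log2 ratios to the healthy mean over the 22 genes was -0.02, 0.07 and -0.05 in healthy 1 to 3, -0.00 in AML 1, and -0.19 and -0.15 in AML 2 and AML 3. The same median over all genes tested lay between -0.01 and 0.01 in every library. TMM scaling centres the bulk of genes in this way, so that median is no independent reference. AML 1 was the highest AML library for 14 of the 22 genes (63.6%), as it was for 38.6% of all genes. Without AML 1 the remaining AML libraries lay below all healthy libraries for 8 of the 22 (36.4%), where 17.6% of all genes showed this order. AML 1 also stood apart from its group over the genes tested. Raw counts were compared by a chi-square value per degree of freedom, which rises as libraries differ more. For AML 1 it was 63.95, 60.3 and 73.2 against healthy 1 to 3, and 87.9 and 104 against AML 2 and AML 3. Between AML 2 and AML 3 it was 28.3. In the fatty acid arm the medians were 0.09, 0.10 and 0.06 in AML 1 to 3, so AML 2 and AML 3 did not stand below the healthy libraries there, though the difference between the arms was not tested. The summed level of 10 cell cycle genes, among them Mki67 and Top2a, was 29.7, 112.6 and 42.0 CPM in healthy 1 to 3 and 260.6, 60.4 and 79.6 CPM in AML 1 to 3. The 2 libraries with the highest sums, AML 1 and healthy 2, also had the 2 highest sterol medians. The order did not hold for the other libraries, as AML 2 and AML 3 had higher sums than healthy 1 and healthy 3 but lower medians. All 10 genes were detected and had positive log2 fold changes. By edgeR, 1 of the 10 was higher in AML at an unadjusted p below 0.05, where 5.08% of all genes were. The part of cycling cells in the sterol values was not tested.

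**Figure D4:**
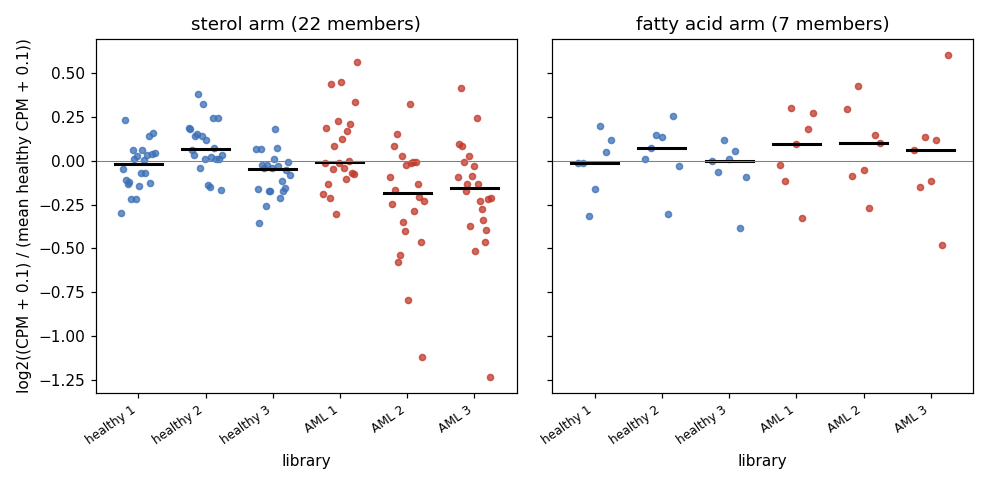
Log2 ratio of each tested member's CPM to its healthy mean, by library, for the sterol arm (left, 22 genes) and the fatty acid arm (right, 7 genes), with 0.1 added to both levels and the median as a black line. The sterol medians of AML 2 and AML 3 lie at -0.19 and -0.15, with Insig1 and Cyp51 among the lowest points, while AML 1 lies at the healthy level.

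In the fatty acid arm Acly was the only gene whose groups did not overlap, and by a small amount. Acly (chromosome 11, 100476352 to 100528000) measured 398, 423 and 385 CPM in healthy 1 to 3 and 372, 378 and 362 CPM in AML 1 to 3. The edgeR log2 fold change was -0.12 ± 0.07 (SE), with an unadjusted p of 0.126 and an adjusted p of 0.628. It ran from -0.16 to -0.09 as libraries were left out and was -0.05 with library totals as the only scaling. Srebf1, the regulator of the arm, was level in healthy libraries, at 143, 145 and 144 CPM, and measured 142, 176 and 150.0 CPM in AML 1 to 3. AML 2, the library with the lowest Srebf2, had the highest Srebf1. The log2 fold change of Srebf1 was 0.12 ± 0.09, with an edgeR p of 0.243 and adjusted p of 0.696, and it rested on AML 2, as it was 0.02 without that library. The RPKM of Srebf2 was 1.37 times that of Srebf1 in healthy and 1.07 times in AML libraries.

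Of the enzymes that build the chain, Fasn measured 148, 182 and 167 CPM in healthy and 177, 159.7 and 153 CPM in AML libraries, and its log2 fold change was -0.02 ± 0.10. Acaca measured 2.57, 3.58 and 3.51 CPM in healthy and 3.999, 4.36 and 3.55 CPM in AML libraries, an edgeR log2 fold change of 0.30 ± 0.26 (SE; p 0.271, adjusted p 0.713). AML 3 lay just under healthy 2, and without healthy 1, the lowest library, the value was 0.16. Of the enzymes that modify the chain, Fads1 had the largest positive value of all members. Fads1 measured 8.47, 7.62 and 7.29 CPM in healthy and 9.45, 8.38 and 11.9 CPM in AML libraries, an edgeR log2 fold change of 0.35 ± 0.20 (SE; p 0.116, adjusted p 0.621). AML 2 lay within the healthy range and AML 1 and AML 3 above it, and without AML 3 the value was 0.19. Scd2 varied within each group more than between them, with 52.3, 60.4 and 38.7 CPM in healthy and 57.3, 55.9 and 36.1 CPM in AML libraries. Elovl6, the elongase of long chains, measured 21.8 ± 3.80 and 19.7 ± 3.46 CPM (SD, n = 3 each), a log2 fold change of -0.15 ± 0.18.

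The genes around these pathways were described from lists of other sterol enzymes, SREBP control and sterol uptake, efflux, isoprenoid use, other fatty acid synthesis and oxidation, in which 0 of 61 tested genes passed an adjusted p of 0.05 by edgeR. At an unadjusted p below 0.05, 7 (Insig2 included) were higher and 0 were lower in AML, where 5.08% of all genes were higher and 3.75% lower. Besides Insig2 they were 3 of 10 genes for the sterol-sensing receptor LXR, sterol efflux and sterol esterification, 1 of 10 for isoprenoid use and 2 of 14 for fatty acid activation and oxidation. Cpt1a, which carries fatty acids towards the mitochondrion, measured 47.3, 64.5 and 66.7 CPM in healthy 1 to 3 and 97.04, 67.1 and 73.1 CPM in AML 1 to 3. Slc25a20, the carnitine carrier of the inner membrane, measured 34.1 ± 2.87 and 40.1 ± 2.20 CPM (SD, n = 3 each), a log2 fold change of 0.23 ± 0.10. For both, each AML library lay above each healthy library, by a narrow gap for Cpt1a, whose log2 fold change of 0.41 ± 0.18 was 0.27 without healthy 1 and 0.24 without AML 1. Rabggtb, which attaches geranylgeranyl groups to Rab proteins, had a log2 fold change of 0.39 ± 0.14, and of 0.25 without AML 3.

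Within the list for LXR and sterol efflux, the genes with the smallest p were Apoe and Cyp27a1, which macrophages express strongly. Apoe, the apolipoprotein E gene, measured 68.6, 41.4 and 32.9 CPM in healthy and 125, 101 and 223 CPM in AML libraries, and its log2 fold change was 1.66 ± 0.36, with an edgeR adjusted p of 0.399. Cyp27a1, a sterol hydroxylase, measured 1.69 ± 0.965 and 5.85 ± 2.09 CPM (SD, n = 3 each), a log2 fold change of 1.79 ± 0.46, with an edgeR adjusted p of 0.404. The sum of the 11 Kupffer cell and macrophage markers ranked the libraries in the same order as Apoe. Healthy 1 to 3 summed to 84.5, 29.0 and 24.7 CPM, and AML 1 to 3 to 159.5, 120.3 and 192 CPM. Much of the sum came from the marker Csf1r, which reached 71.2 CPM in healthy 1 and 115 CPM in AML 1. Single markers did not all keep that order. Adgre1 did, while C1qa, C1qb and C1qc were lowest in healthy 1 and lower in AML 1 than in AML 2. None of the 11 markers was at 0 in all libraries. By edgeR, 5 of 9 tested were higher in AML at an unadjusted p below 0.05, where 5.08% of all genes were. The part of macrophage RNA in the values of Apoe and Cyp27a1 was not tested. Abca1, the sterol exporter, had a log2 fold change of 0.50 ± 0.19, with healthy libraries at 32.0, 21.4 and 20.6 CPM and AML libraries at 32.7, 40.6 and 31.2 CPM. Abca1 was chosen after its values were seen.

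In the remaining lists the genes with the smallest p included Lbr for other sterol enzymes, Mylip, an LXR target that marks lipoprotein receptors for decay, for sterol uptake, Coq2 for isoprenoid use, and Tecr and Slc25a1 for fatty acid synthesis. Tecr, which completes each cycle of chain elongation, measured 216 ± 2.31 and 202 ± 4.60 CPM (SD, n = 3 each), a log2 fold change of -0.10 ± 0.06. Coq2, of ubiquinone synthesis, and Slc25a1, the citrate carrier, had log2 fold changes of -0.28 ± 0.13 and -0.11 ± 0.10, and Mylip of 0.23 ± 0.18. That of Slc25a1 was -0.04 without healthy 1, and that of Mylip was 0.40 without AML 1 and 0.11 without healthy 2.

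The genes outside the list whose levels most resembled the mean profile of the sterol arm over the 6 libraries were Pdcd6, Gclm, Abca13, Nop16 and Pitpnb, with Pearson correlations of 0.987, 0.987, 0.987, 0.987 and 0.986. Nop16, a protein of ribosome assembly, for example measured 21.1, 24.8 and 19.8 CPM in healthy 1 to 3 and 23.8, 17.9 and 17.4 CPM in AML 1 to 3. These are the highest values among all genes tested over 6 points that share their libraries and depth, and they are given as a description.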

How the data were processed

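The authors deposited raw read counts per gene, as whole numbers, and a table of their own comparison, which per the file headers holds a log2 fold change and an adjusted p-value per gene. That table also has 6 columns of values per library, which were not used. Per the labels' protocols, 2 ng of RNA was amplified from poly(A) tails and sequenced as single reads of 51 cycles without strand information, so reads of a gene and of an antisense neighbour are not separable. STAR 2.6.0, bcl2fastq 2.18.0.12, edgeR 3.28.1 and HTSeq 0.6.0 stand in the submitters' processing notes, with the builds mm10 and hg19, all without roles. All 31 members lie on the chromosome, and overlap the span, that RefSeq gives in GRCm38.p6, and 20 have the identical start.

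AML was compared with healthy with edgeR 4.0.16 (quasi-likelihood F test, R 4.3.3, TMM, filterByExpr at a minimum count of 10, group only, two-sided) on 12469 genes, with Benjamini-Hochberg adjustment over all of them and a threshold of 0.05. The script was tested on simulated data. Standard errors come from the fitted fold change and its F value. An exact two-sided permutation test over 3 and 3 libraries has 0.1 as its smallest p, so none was run. Alternatives used DESeq2 1.42.0, limma 3.58.1, other scaling and filters, a replicate block and left-out libraries. The members, lists and tests were chosen with earlier results of these data known. By rule, full statistics went to the 8 sterol and 4 fatty acid members with the smallest p, and up to 2 genes per surrounding list were named, of which 1 is not reported here. Cyp51, Stard4, Fasn, Scd2, Abca1, Hmgcs1 and other members given by library were chosen after their values were seen. Erg28, on the list of other sterol enzymes, matched no symbol of the count table. Limits of 3 reads describe counting error alone, as the reads carry no molecular identifiers.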

Additional observations from a re-analysis of the deposited data

How the results depend on the processing

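Over 15 alternatives, the count of members past an adjusted p of 0.05 was 0 except without AML 1, where it was 1, and without both healthy 1 and AML 1, where it was 2. Of all genes, 147 of 12764 and 444 of 12555 were called in these 2 fits, and from 0 to 149 (DESeq2) in the others. Left-out single libraries gave 0 to 1 members. The sterol arm median of -0.08 stayed negative in all 15 and ran from -0.1929 to -0.0277 as single libraries were left out, and it was -0.21 without both healthy 1 and AML 1. The fatty acid arm median of -0.02 changed sign with few genes at stake. It was 0.0387 with library totals as the only scaling, where the median of all genes also rose, from 0.0106 to 0.0732. The arm median was 0.0459 with no filter on low counts, 0.0453 by DESeq2 and 0.0495 without both healthy 1 and AML 1. It ran from -0.00762 to 0.154 without single libraries. Scd1 joined the 7 genes tested without a filter, in DESeq2, and without healthy 2, healthy 3, AML 1 or AML 3. Part of that range thus goes with an added gene of few reads. With the same 7 genes the median was 0.00166 without healthy 1 and -0.00762 without AML 2. Among the 12 members with full statistics, the log2 fold change of Fdps turned to 0.00545 without healthy 2 and ran down to -0.347 without healthy 3, and 177 of 180 values kept direction and side of the threshold, the others being the 2 calls of Insig1. With the replicate number as a block the members called were 0 and the sterol median was -0.11. Same-numbered libraries correlated at 0.13, -0.05 and 0.16 in their deviations from the group means, so the numbers were not taken as pairs. Depth limits what can be said of Fads2, Scd1, Idi1 and Acaca.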
